A study of Citrus sinensis with 36 samples.

Results

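The peel of Jincheng and Xianfeng, a pair of common sweet orange (CO) varieties of Citrus sinensis, was compared gene by gene. The comparison rests on 6 of the 36 libraries of the study, 3 from the peel of each variety, and on the 17440 of 29654 annotated genes whose mean reached 0.3 FPKM (a fragment count corrected for the length of the gene and the depth of sequencing) in either variety. The study set 3 CO varieties (Jincheng, Taoye and Xianfeng) beside 3 Valencia orange (VO) varieties (Cutter, Delta and Rohde Red) and sampled peel and pulp of each. All fruits were picked at 220 DAF (days after flowering), when the peel and the pulp were separated by hand. At that time, per the methods, the CO fruits were mature and the VO fruits were still colouring, so every VO level given beside those of Jincheng and Xianfeng comes from another stage of ripening. Neither variety was treated, and the labels give no genotype beyond the variety name. A library stands for pooled trees, and the sample labels and the methods differ on how many trees made up a replicate. Variety, trees and handling of the fruits cannot be told apart, and the p-values measure the spread between the 3 libraries of a variety.

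The peel of an orange is made of a pigmented outer layer, the flavedo, with a waxy cuticle, oil glands and plastids that turn from chloroplasts to chromoplasts, and of a spongy white layer, the albedo. The pulp consists of juice sacs, whose vacuoles store acids and sugars. A hand-dissected peel library holds all of these peel cell types in bulk, so fewer cells of a type and less RNA per cell cannot be told apart.

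The 6 libraries held 15.5 M to 16.5 M fragments in genes, and 17074 to 17098 genes in Jincheng and 16897 to 16967 genes in Xianfeng reached 0.3 FPKM. Pearson's r of log2(FPKM + 0.1) across genes, which are not independent replicates, was 0.985 to 0.986 within a variety and 0.975 to 0.978 between varieties. The first principal component took 40.7% of the variance and separated the varieties. Of the 31 genes listed as epidermis and cuticle markers, 9 were at 0 in all Jincheng and 7 in all Xianfeng peel libraries, among them a CYP86A8 gene (orange1.1t00377). Their summed level was 155 to 168 FPKM in Jincheng peel and 223 to 234 FPKM in Xianfeng peel, against 59.8 to 89.8 FPKM in the pulp of the same varieties. The 17 green cell markers had no gene at 0 and did not mark the peel, with 153 to 174 FPKM in peel and 193 to 208 FPKM in pulp. The 44 oil gland terpene markers did not mark it in Jincheng, with 364 to 380 FPKM in peel and 358 to 394 FPKM in pulp. In Xianfeng they were higher in peel, with 367 to 372 FPKM there and 293 to 320 FPKM in pulp. Of these markers, 5 genes described as (R)-limonene synthase 1 were at 0 in all 6 peel libraries.

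Jincheng and Xianfeng peel differed in fewer genes than any other pair of varieties within CO or within VO. At an adjusted p below 0.05 (limma, Benjamini-Hochberg over all genes tested), 1977 genes (11.3%) differed, 1059 of them (6.07%) higher in Jincheng and 918 (5.26%) higher in Xianfeng. The other 5 peel pairs, which share libraries with each other, gave 2672 to 5793 genes. The median absolute difference of the called genes was 0.35 on the log2 scale, so most were far below 2-fold. The direction of the small differences depended on scaling: 53.6% of the calls were higher in Jincheng with the deposited FPKM, against 39.1% after scaling by the median ratio, which moved the median of all genes from 0.04 to 0.01, and 48.3% after quantile normalization. The count fell to 1283 without Jincheng library 2, to 1286 without Xianfeng library 1 and to 1298 without Xianfeng library 2.

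With a difference of at least 2-fold as a second condition, 261 genes (1.50%) remained, and Xianfeng was the higher variety in most of them. These were 168 genes (0.963%) higher in Xianfeng and 93 genes (0.533%) higher in Jincheng. The libraries of the varieties did not overlap in any of the 261, nor in 5350 (30.7%) of all tested genes. The 261 were selected on these same libraries, so their lack of overlap is no separate result. In 72 of the 261 both means were below 1 FPKM, and 34 genes reached 4-fold, 23 of them higher in Xianfeng. The called genes nearest to the limit had absolute log2 differences of 1.002 on the inside and 0.997 on the outside.

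**Figure D1:**
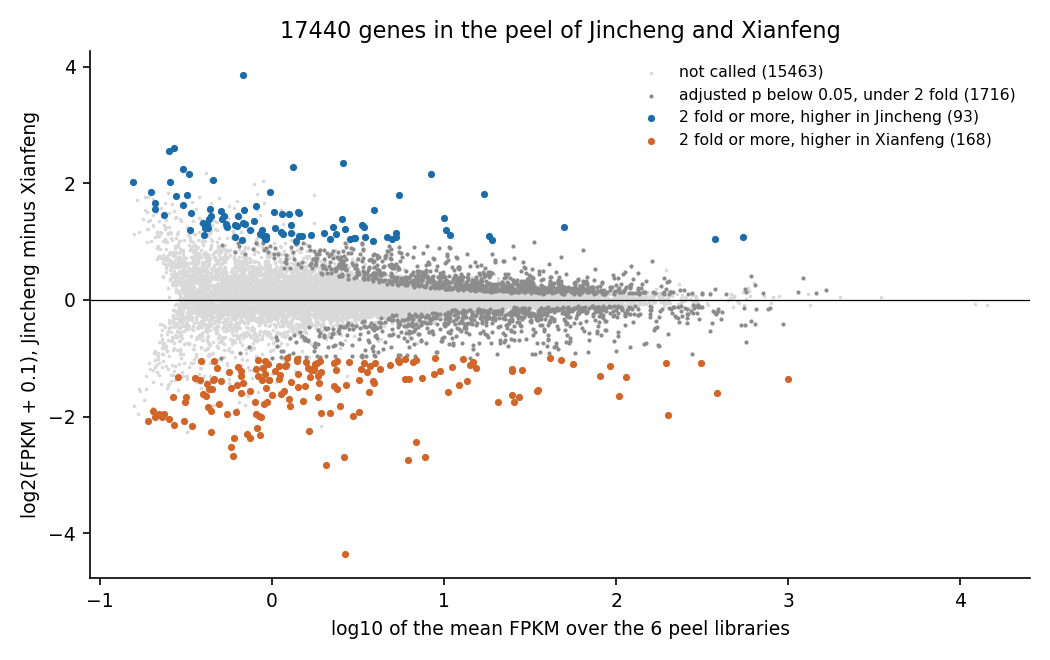
Each point is 1 of 17440 genes, with the log10 mean FPKM over the 6 peel libraries on the x axis and the log2(FPKM + 0.1) difference, Jincheng minus Xianfeng, on the y axis. The 93 genes called at 2-fold or more and higher in Jincheng are blue, the 168 higher in Xianfeng are orange, and smaller called differences lie close to 0 at high expression.

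Genes that the pulp expresses far more than the peel were higher in Xianfeng peel. Such genes were chosen after the values had been seen, from Taoye and the 3 VO varieties only, as those with at least 10 FPKM in pulp and a pulp mean at least 10 times the peel mean in each of the 4. Of 20 such genes 19 were tested, 18 were higher in Xianfeng peel, 13 of them by 2-fold or more, and none was higher in Jincheng. Their median log2 difference was -1.38, against 0.04 over all genes tested. Their summed level was 339 to 352 FPKM in Jincheng peel and 899 to 901 FPKM in Xianfeng peel, with no overlap, and 6519 to 7452 FPKM in the pulp of both. The peel of the 4 other varieties ranged from 299 FPKM in Taoye to 671 FPKM in Cutter. With the limit at 5 times, 39 of 51 genes tested were higher in Xianfeng and 1 in Jincheng. Of 49 genes rich in peel by the mirrored rule, 27 were higher in Jincheng and 7 in Xianfeng, with a median of 0.15. Of all genes tested, 6.07% were higher in Jincheng and 5.26% in Xianfeng.

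The most abundant of the pulp-rich genes was a germin-like protein (Cs5g25760), of a family of cell wall glycoproteins that includes oxalate oxidases and superoxide dismutases. It was at 189, 184 and 198 FPKM in Jincheng peel and at 574, 578 and 574 FPKM in Xianfeng peel (log2 difference -1.60, SE 0.03, adjusted p = 1.63e-08), and at 3691 and 4490 FPKM in the pulp. The cysteine protease RD21A (Cs2g04770) was at 16.5 to 18.4 FPKM in Jincheng and 50.7 to 52.7 FPKM in Xianfeng. ATPase 10 (Cs1g16150), of the proton pump family that acidifies vacuoles, was at 0.825, 1.13 and 1.20 FPKM in Jincheng and 4.07, 3.69 and 3.99 FPKM in Xianfeng. Basic helix-loop-helix protein A (Cs5g31400), whose petunia relative regulates that pump, was at 1.80 against 5.55 FPKM. MYB5 (Cs9g03070), a relative of another petunia regulator of the pump, is outside the pulp-rich set and was at 0.661 against 1.93 FPKM in peel. The sugar transporter SWEET15 (Cs7g02970) was at 9.46 ± 0.85 FPKM in Jincheng and 21.2 ± 0.9 FPKM in Xianfeng (SD, n = 3), and pectinesterase 21 (Cs3g14610) at 6.83 ± 0.17 and 15.3 ± 0.2 FPKM. Chlorophyllase-1 (Cs5g30790), an enzyme that removes the phytol tail of chlorophyll, was at 0.751 and 3.11 FPKM in peel but at 28.0 and 55.5 FPKM in pulp.

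The amount by which Xianfeng peel exceeded Jincheng peel was 2.17% to 11.5% of the Xianfeng pulp level in the 18 pulp-rich genes called higher in Xianfeng, with a median of 7.21%. Of the 168 genes at least 2-fold higher in Xianfeng peel, 83 had a higher mean in Xianfeng pulp than in its peel and 49 (29.2%) had a mean over 5 times higher there, against 1.27% of all genes tested. For 81 of the 168 the excess in Xianfeng peel was larger than the whole level in Xianfeng pulp. The part of juice sac or other pulp RNA in the peel libraries was not tested. The pulp level is given below for some of the genes that pulp expresses strongly. Where none is given it need not be low: beta-carotene hydroxylase 2 (Cs9g19270) had 381 and 431 FPKM in Jincheng and Xianfeng pulp.

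**Figure D2:**
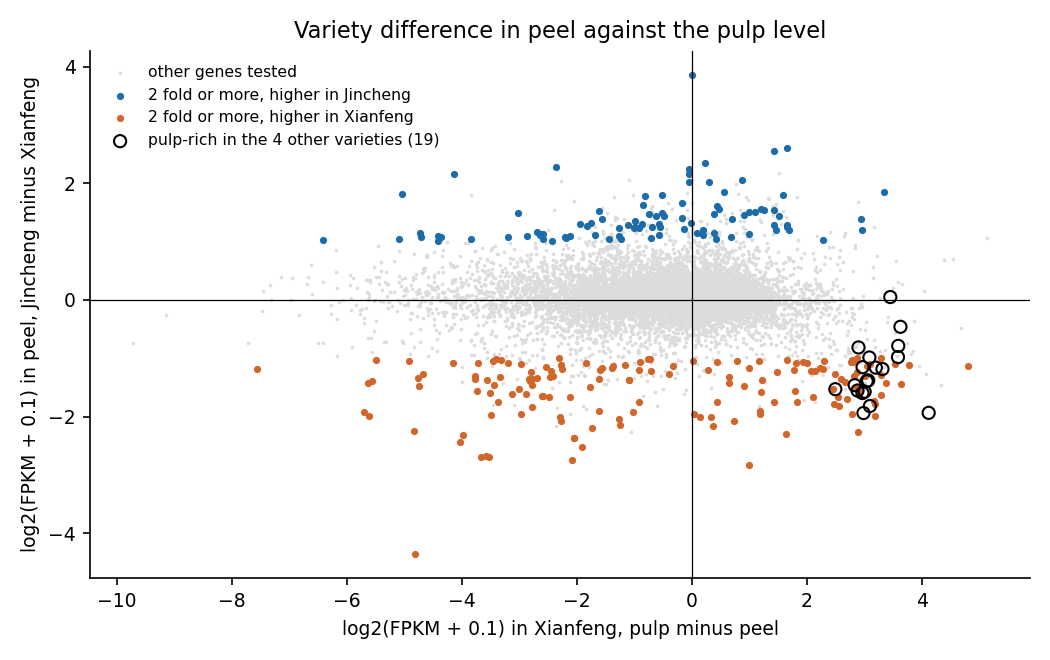
The x axis is the pulp minus peel difference in Xianfeng and the y axis the Jincheng minus Xianfeng difference in peel, both of log2(FPKM + 0.1), with 1 point per gene tested. The 19 circled genes, pulp-rich in the 4 other varieties, lie at the right, and 18 of them are below 0.

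Genes for sulfate uptake and assimilation were one group with members higher in Xianfeng peel and mostly low in pulp. Plants take up sulfate, activate it with ATP sulfurylase, reduce it over sulfite to sulfide and build cysteine, methionine and glutathione from it. In Arabidopsis a shortage of sulfur induces many of these genes together with the SDI and LSU proteins. A list of 50 genes with such descriptions, drawn up after the values had been seen, had 38 tested members. Of these, 14 (36.8%) were higher in Xianfeng, 8 of them by 2-fold or more, 3 (7.89%) were higher in Jincheng and 21 were not called. The median was -0.08, and of all genes tested 5.26% were higher in Xianfeng and 6.07% in Jincheng. The choice was made on these libraries and is no independent evidence of the direction. In 10 of the 14 the excess in Xianfeng peel was larger than the whole pulp level, and 1 of the 14 had a higher mean in pulp than in peel.

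SULFUR DEFICIENCY-INDUCED 1 (Cs5g34830) was at 2.35, 1.69 and 1.97 FPKM in Jincheng and at 13.9, 13.4 and 13.0 FPKM in Xianfeng (log2 difference -2.70, SE 0.11, adjusted p = 1.36e-06), with 1.32 to 3.44 FPKM as the means of the other varieties. SULFUR DEFICIENCY-INDUCED 2 (Cs9g11050) was at 3.70, 3.24 and 2.87 FPKM in Jincheng and 8.5, 8.30 and 8.78 FPKM in Xianfeng (-1.36, SE 0.09, adjusted p = 3.65e-05). The related RESPONSE TO LOW SULFUR 2 (orange1.1t02887) was at 12.5, 13.7 and 13.1 FPKM against 40.4, 39.4 and 45.1 FPKM (-1.66, SE 0.06, adjusted p = 5.23e-07). In all 3 Xianfeng was the highest of the 6 varieties.

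Some of the genes of the assimilation steps were also called higher in Xianfeng. ATP sulfurylase 1 (Cs9g07750) was at 124, 123 and 125 FPKM in Jincheng and at 253, 271 and 270 FPKM in Xianfeng (-1.09, SE 0.03, adjusted p = 1.16e-07), with 28.9 FPKM in Xianfeng pulp. The next enzyme, 5'-adenylylsulfate reductase 1 (Cs2g02980), was at 64.7, 68.4 and 62.1 FPKM against 162, 163 and 161 FPKM (-1.32, SE 0.04, adjusted p = 1.16e-07). Sulfite reductase 1 (Cs2g30390), which forms sulfide, was at 53.2 ± 0.9 FPKM against 85.3 ± 0.8 FPKM. Others of these steps did not pass the test, with log2 differences of -0.11 for ATP sulfurylase 2 (Cs3g25910), 0.33 and -0.10 for the adenylyl-sulfate kinases Cs1g21470 and Cs5g26680, -0.02 for the cysteine synthase Cs3g11480 and 0.10 for serine acetyltransferase 5 (Cs4g13620). Another cysteine synthase (Cs3g11510), not among the 122 genes counted below, was called higher in Xianfeng, at 23.9 against 27.9 FPKM (-0.22, SE 0.04, adjusted p = 0.0109). Among the transporters, sulfate transporter 4.1 (Cs7g28380), of the family that exports sulfate from the vacuole, was at 10.8 against 18.5 FPKM and sulfate transporter 1.3 (Cs3g18650) at 15.4 against 22.7 FPKM. Not all transporters went this way. Sulfate transporter 3.5 (Cs4g16770) was higher in Jincheng, at 32.0 ± 0.4 against 19.4 ± 0.8 FPKM (0.72, SE 0.04, adjusted p = 8.57e-06), and so was serine acetyltransferase 3 (Cs4g08990), which makes the precursor of cysteine, at 8.29 ± 1.36 against 4.90 ± 0.19 FPKM. The third, sulfate transporter 3.1 (Cs5g30850), was at 85.8 against 79.2 FPKM and lost its call with a median-ratio scaling and in 5 of the 6 omissions of a library.

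Among genes that release or recycle sulfur compounds, single members were higher in Xianfeng. Gamma-glutamylcyclotransferase 2-2 (Cs7g07640), of an enzyme family that breaks down glutathione, was at 45.2, 48.8 and 44.5 FPKM in Jincheng and 113, 113 and 117 FPKM in Xianfeng. Homocysteine S-methyltransferase 3 (Cs9g07420), which forms methionine, was at 9.65, 8.84 and 9.67 FPKM against 31.4, 32.5 and 31.1 FPKM (-1.75, SE 0.05, adjusted p = 1.16e-07). Taoye was at 14.6 FPKM and the VO varieties at 25.4 to 35.0 FPKM. Homocysteine S-methyltransferase 1 (Cs7g13320) was at 1.05 against 2.46 FPKM. Their relatives did not pass the test: the gamma-glutamylcyclotransferases Cs3g19470, Cs5g19970 and Cs7g14450 had log2 differences of -0.06, -0.09 and 0.11, and the methionine synthases Cs2g28930, Cs5g27000, Cs5g27040 and orange1.1t05439 of 0.08, -0.03, -0.07 and -0.43. Outside the list, a cystinosin homolog (Cs2g24290), whose human counterpart exports cystine from lysosomes, was at 58.2 ± 1.1 FPKM in Jincheng and 127 ± 3 FPKM in Xianfeng, with 53.5 to 62.6 FPKM in the other varieties and 79.2 and 102 FPKM in the pulp. A run of 3 neighbouring oligopeptide transporter genes was higher in Xianfeng at low levels, with 0.894 against 1.92 FPKM for Cs4g08360, 0.177 against 1.25 FPKM for Cs4g08370 and 0.0958 against 0.787 FPKM for Cs4g08380. The last 2 of these were at 4.11 and 6.43 FPKM in Xianfeng pulp, and their similar sequences may share reads.

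**Figure D3:**
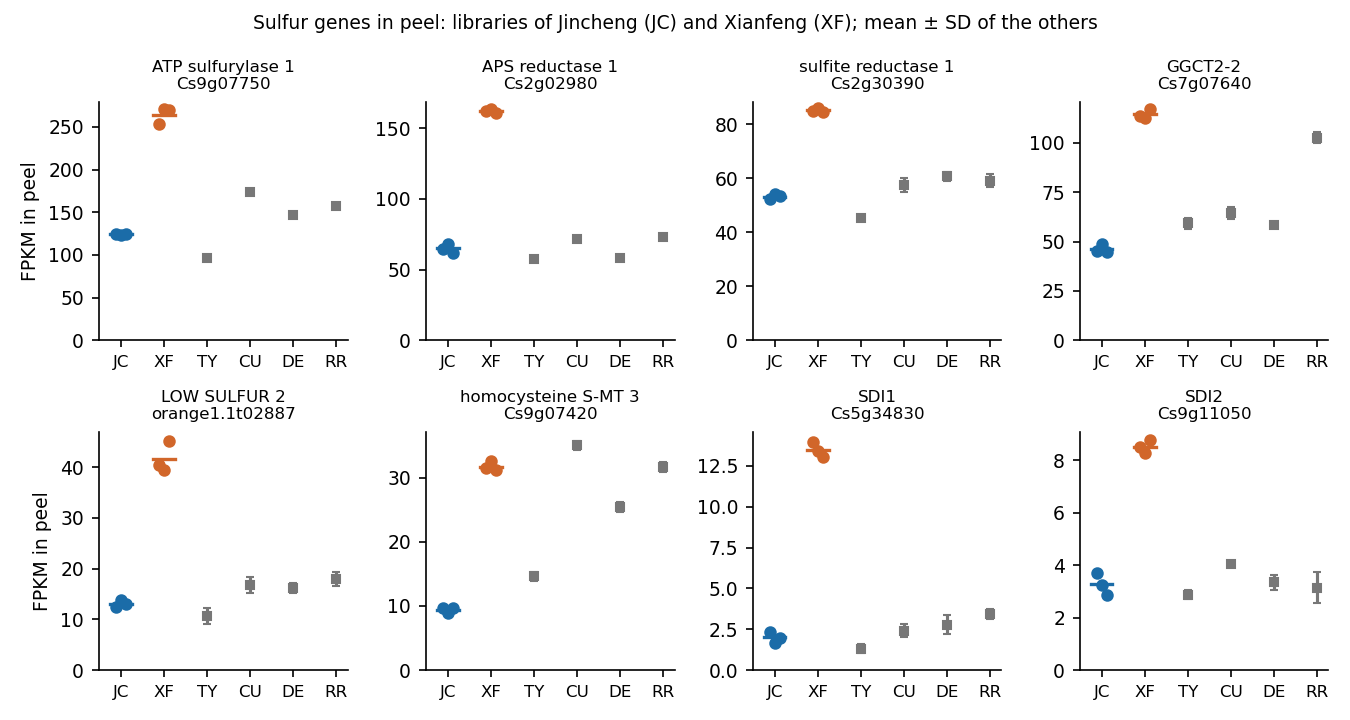
FPKM in peel for 8 sulfur genes, with 1 point per library and a line at the mean for Jincheng (JC) and Xianfeng (XF), and mean ± SD of 3 libraries for Taoye (TY), Cutter (CU), Delta (DE) and Rohde Red (RR). The 8 genes were picked from those called higher in Xianfeng, so the lack of overlap between the varieties in every panel is no separate result. List members that were higher in Jincheng (3) or not called (21) are not shown. Homocysteine S-methyltransferase 3 is also high in the 3 VO varieties.

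A minority of the cuticle genes differed, most of them higher in Xianfeng. The cuticle of citrus fruit is a cutin polyester embedded in and covered with waxes, which epidermal cells make from very long fatty acids. Of 81 tested genes of cutin and wax formation, 16 (19.8%) were higher in Xianfeng, 5 (6.17%) were higher in Jincheng and 60 were not called, with a median of -0.06. Of 19 tested epidermis markers 7 (36.8%) were higher in Xianfeng and none in Jincheng, against 5.26% and 6.07% of all genes tested. These groups share members, and 2 of the 16 had a higher mean in Xianfeng pulp than peel. ECERIFERUM 1 (Cs1g02760), which forms alkanes of the wax, was at 29.9, 31.0 and 32.6 FPKM in Jincheng and at 49.2, 48.5 and 50.3 FPKM in Xianfeng (-0.66, SE 0.04, adjusted p = 1.38e-05), and its partner ECERIFERUM 3 (Cs4g02580) at 35.2 against 45.8 FPKM. The fatty acid elongases 3-ketoacyl-CoA synthase 1 (orange1.1t00556) and 6 (Cs7g13310) were at 33.4 against 55.8 FPKM and at 6.38 against 12 FPKM. Glycerol-3-phosphate acyltransferase 6 (Cs6g07920), a cutin enzyme, was at 1.90, 1.83 and 2.56 FPKM against 5.50, 5.39 and 6.44 FPKM (-1.43, SE 0.14, adjusted p = 0.000282), with at most 0.019 FPKM in pulp. The lipase APG (Cs1g16000) was at 4.50 against 9.22 FPKM, below the 31.6 to 35.6 FPKM of the VO varieties. In the opposite direction, a GPI-anchored lipid transfer protein (orange1.1t01623), of a family that carries lipids to the cell surface, was at 28.5, 28.6 and 23.1 FPKM in Jincheng and 7.04, 9.40 and 6.31 FPKM in Xianfeng. It was the only 1 of 19 tested lipid transfer proteins called higher in Jincheng, while 4 (21.1%) were higher in Xianfeng.

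Cell wall genes gave the largest difference in absolute FPKM. Extensins are hydroxyproline-rich proteins that are cross-linked into the wall. The extensin-3-like gene Cs3g21170 was at 574, 558 and 550 FPKM in Jincheng and at 1409, 1417 and 1495 FPKM in Xianfeng (-1.36, SE 0.03, adjusted p = 3.86e-08), and its neighbour Cs3g21160 at 199 ± 3 and 422 ± 6 FPKM. The other varieties had 163 to 385 FPKM of the first gene, pulp had 27.4 and 105.3 FPKM, and reads may be shared between these similar genes. Of 75 tested pectin-modifying enzymes, 13 (17.3%) were higher in Xianfeng and 2 in Jincheng, and 6 of the 13 had a higher mean in Xianfeng pulp than peel. Polygalacturonase 1 beta-like protein 3 (Cs7g08620) was at 288 against 416 FPKM and pectate lyase 22 (Cs5g06600), which cuts pectin, at 478 against 644 FPKM, with 1314 FPKM in Xianfeng pulp. Beta-D-xylosidase 5 (Cs8g08680) was higher in Jincheng, at 4.79 ± 0.21 against 1.91 ± 0.12 FPKM. The 116 cellulose, xyloglucan and wall loosening genes had 10 members higher in Jincheng and 9 in Xianfeng. The shares over all genes tested were 6.07% and 5.26%.

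Among the lists with at least 15 members tested, jasmonate and lipoxygenase had the largest share of called genes. Jasmonates are oxidized fatty acid hormones of wound and stress responses, and TIFY (JAZ) proteins repress their target genes and are induced by them. Of 27 tested genes 15 (55.6%) were higher in Xianfeng and 1 (3.70%) in Jincheng, with a median log2 difference of -0.20 and 12 to 16 genes higher in Xianfeng under all alternatives that used all 6 libraries. Over all genes tested 5.26% were higher in Xianfeng and 6.07% in Jincheng. A higher mean in Xianfeng pulp than peel was found in 3 of the 15. TIFY 10A (Cs1g17220) was at 40.1, 39.3 and 40.7 FPKM in Jincheng and at 77.7, 75.5 and 73.8 FPKM in Xianfeng (-0.92, SE 0.03, adjusted p = 4.10e-07). A second TIFY 10A gene (Cs1g17210) was at 40.9 against 66.9 FPKM and TIFY 5A (Cs2g03240) at 28.3 against 53.0 FPKM. Taoye was above both varieties in these 3 genes, with 114, 93.3 and 66.3 FPKM. Hydroperoxide lyase (Cs2g21000), which diverts the precursors to leaf volatiles, was at 38.8 against 64.1 FPKM, and the jasmonate-forming allene oxide synthase 1 (Cs3g24230) at 32.5 against 40.0 FPKM. 12-Oxophytodienoate reductase 2 (Cs5g17920) was at 0.553 against 1.79 FPKM. The exception, allene oxide cyclase (Cs6g18900), was at 140 against 129 FPKM and lost its call after scaling by the median ratio. Cytochrome P450 94C1 (Cs3g07440), of the enzymes that oxidize and inactivate jasmonate in Arabidopsis, was at 3.71, 3.22 and 3.39 FPKM against 9.67, 7.59 and 9.82 FPKM.

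Ethylene genes showed no common direction, with 4 of 34 (11.8%) higher in each variety, against 6.07% (Jincheng) and 5.26% (Xianfeng) of all genes tested. Both genes that differed by 2-fold were of ethylene synthesis. ACC synthase 8 (Cs3g16400), of the enzymes that usually limit it, was at 2.47, 1.81 and 1.99 FPKM in Jincheng and at 5.28, 6.24 and 5.40 FPKM in Xianfeng (-1.40, SE 0.13, adjusted p = 0.000199), with at most 0.346 FPKM in the VO varieties and at most 0.0209 FPKM in pulp. ACC oxidase 1 (Cs4g13870), which completes the pathway, was at 3.00 against 6.68 FPKM, but at 96.3 and 92.9 FPKM in the pulp.

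Defence genes were divided. Of 393 tested genes described as disease resistance proteins, many of them receptors, 23 (5.85%) were higher in Jincheng and 2 (0.509%) in Xianfeng, with a median of 0.11. The Jincheng share was near the 6.07% of all genes, and the Xianfeng share was below their 5.26%. The receptor-like DSC1 (Cs5g17870) was at 0.999, 0.840 and 0.897 FPKM in Jincheng and 0.335, 0.333 and 0.284 FPKM in Xianfeng. Pathogenesis-related proteins had 9 of 73 members higher in Jincheng and 11 in Xianfeng. Basic endochitinase A (Cs1g26330), which cuts fungal chitin, was at 11.4, 12.1 and 12.7 FPKM against 36.8, 36.7 and 39.1 FPKM, with 282 FPKM in Xianfeng pulp. The antimicrobial peptide snakin-2 (Cs7g08100) was at 4.20 against 10.6 FPKM, with at most 0.297 FPKM in pulp. A disease resistance response protein (Cs5g02790), which is no receptor and was counted among the 393, was at 0.302 against 1.32 FPKM. ENHANCED DISEASE RESISTANCE 2 (orange1.1t03136), also no receptor and counted there, was at 0.533 against 0.143 FPKM and lost its call in 5 of the 6 omissions of a library. DMR6-LIKE OXYGENASE 1 (Cs5g28710), whose Arabidopsis counterpart hydroxylates the defence hormone salicylic acid, was at 49.9 to 51.8 FPKM in Jincheng and at 160, 159 and 155 FPKM in Xianfeng (-1.64, SE 0.03, adjusted p = 1.00e-08). The means of the other varieties were 30.9 to 53.9 FPKM and those of pulp 21.4 and 26.1 FPKM. Of 16 heat shock proteins and factors higher in Xianfeng, among 156 tested, 15 had a higher mean in Xianfeng pulp than peel. An example is the 17.6 kDa class I heat shock protein 3 (Cs8g18020), at 35.7 against 76.6 FPKM in peel and at 659 FPKM in Xianfeng pulp, and 13 of the 156 were higher in Jincheng.

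The photosystem genes that differed were higher in Jincheng. Orange peel loses its photosynthetic apparatus as it ripens, and early light-induced proteins (ELIPs) bind pigments and protect plastids in light stress. Of 46 tested genes of the photosystems and antennae, 10 (21.7%) were higher in Jincheng, 3 of them by 2-fold or more, none was higher in Xianfeng and 36 were not called. The median was 0.27, and 40 of 46 were above 0. Of all 17440 genes tested, 6.07% were higher in Jincheng, 5.26% were higher in Xianfeng and 10495 were above 0. ELIP 1 (Cs9g07670) was at 754, 725 and 743 FPKM in Jincheng and at 349, 350 and 350 FPKM in Xianfeng (1.08, SE 0.02, adjusted p = 3.86e-08), with 44.3 to 104 FPKM in the VO varieties. The neighbouring copy (Cs9g07680) was at 700 ± 36 and 589 ± 5 FPKM, and reads may be shared between these copies. The photosystem II 22 kDa protein (Cs3g19650), which dissipates excess light, was at 7.77, 6.77 and 7.19 FPKM against 3.34, 3.08 and 3.28 FPKM. Chlorophyll a-b binding protein 3C (Cs2g03780) was at 32.8 against 17.2 FPKM, both below the 56.0 to 129 FPKM of the other varieties. Photosystem I subunit II (Cs5g31180) was at only 0.394 and 0.078 FPKM, and its call was lost when any of the 6 libraries was left out. Ribulose bisphosphate carboxylase small chain (Cs4g03580) was at 100.4 against 109 FPKM, a call that 5 of the 6 omissions of a library ended, and the summed green cell markers were 172 to 174 FPKM in Jincheng and 153 to 167 FPKM in Xianfeng.

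Ribosomal protein genes showed a small shift. Of 272 tested, 49 (18%) were higher in Jincheng and none in Xianfeng, against 6.07% and 5.26% of all genes tested. None of the 49 differed by 2-fold, and the median of the 272 was 0.12. After scaling by the median ratio 21 were higher in Jincheng, and without the mean-variance trend 2 were, while quantile normalization gave 54 higher in Jincheng and 1 in Xianfeng. The acidic ribosomal protein P0-1 (Cs7g31340) was at 197 ± 3 against 184 ± 2 FPKM, a call that 5 of the 6 omissions of a library ended. The plastid 30S ribosomal protein S7 (Cs4g12360) was at 1193 ± 29 FPKM in Jincheng peel and 1087 ± 6 FPKM in Xianfeng peel, and at 969 and 94.7 FPKM in the pulp. Its peel call was lost after quantile normalization, with the spread of all 18 peel libraries, without the mean-variance trend and without Xianfeng library 2.

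The carotenoid and chlorophyll lists differed in their share of called genes. Carotenoids colour the peel, and 28 of 31 tested pathway genes were not called. None was higher in Jincheng and 3 (9.68%) were higher in Xianfeng, against 6.07% and 5.26% of all genes. In either direction 11.3% of all genes were called. Beta-carotene hydroxylase 2 (Cs9g19270), which forms zeaxanthin, was at 389, 385 and 382 FPKM in Jincheng and 444, 449 and 437 FPKM in Xianfeng (-0.20, SE 0.02, adjusted p = 0.000573). Carotenoid cleavage dioxygenase 4 (Cs8g14150), of the enzymes that cut carotenoids, was at 71.5 ± 0.8 against 103 ± 3 FPKM. NCED1 (Cs5g14370), which starts abscisic acid synthesis, was at 52.6 ± 2.7 against 73.7 ± 1.0 FPKM, with 94.9 FPKM in Xianfeng pulp. Among 20 chlorophyll genes, 2 (10%) were higher in Jincheng and 4 (20%) in Xianfeng, against 6.07% and 5.26% of all genes, and chlorophyllase-1, described above among the pulp-rich genes, was the member that passed 2-fold.

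Terpene and phenolic genes went both ways. Of 23 tested terpene synthases, 7 (30.4%) were higher in Jincheng and 3 (13.0%) in Xianfeng, against 6.07% and 5.26% of all genes tested. The member that passed 2-fold was gamma-terpinene synthase (Cs8g14120), which makes a monoterpene of peel oil, at 1.98 against 4.63 FPKM. The small subunit of geranylgeranyl pyrophosphate synthase (Cs4g10240), which supplies terpene precursors, was at 1.20, 1.59 and 1.07 FPKM in Jincheng and at 4.62, 5.45 and 5.30 FPKM in Xianfeng (-1.92, SE 0.15, adjusted p = 7.00e-05), below the 9.91 FPKM of Taoye and at 0 in pulp. Of 58 flavonoid genes, 13 were higher in Jincheng and 11 in Xianfeng. Chalcone synthases catalyse the entry step, and their copies differed in direction, with Chalcone synthase 2 (Cs2g14720) at 24.8 ± 1.1 against 11.5 ± 0.3 FPKM and the copy Cs3g19360 at 30.6 ± 1.4 against 49.3 ± 0.7 FPKM. An isoflavone reductase homolog (Cs2g16260), of a family of phenylpropanoid reductases, was at 80.0, 83.9 and 80.6 FPKM in Jincheng and at 310, 327 and 327 FPKM in Xianfeng (-1.98, SE 0.03, adjusted p = 1.00e-08). Its means were 48.3 to 79.7 FPKM in the other varieties and 12.4 and 28.3 FPKM in pulp. Of 84 phenylpropanoid and lignin genes, 11 were higher in Jincheng and 10 in Xianfeng. Caffeoylshikimate esterase (Cs2g09850), a lignin enzyme, was at 8.93 against 19.6 FPKM, with at most 1.65 FPKM in the VO varieties. Among transcription factors that the study named as hubs of its networks, NAC25 (Cs2g06460) was at 25.1 against 31.5 FPKM and heat stress factor B-3 (orange1.1t02319) at 5.78 against 7.03 FPKM, the latter not called in most omissions of a library. Not called were the ethylene-responsive factor Cs1g16690, at 202 against 197 FPKM, and the squamosa promoter-binding-like genes Cs2g23550, at 5.12 against 5.64 FPKM, and Cs7g10990, at 2.18 against 1.64 FPKM.

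**Figure D4:**
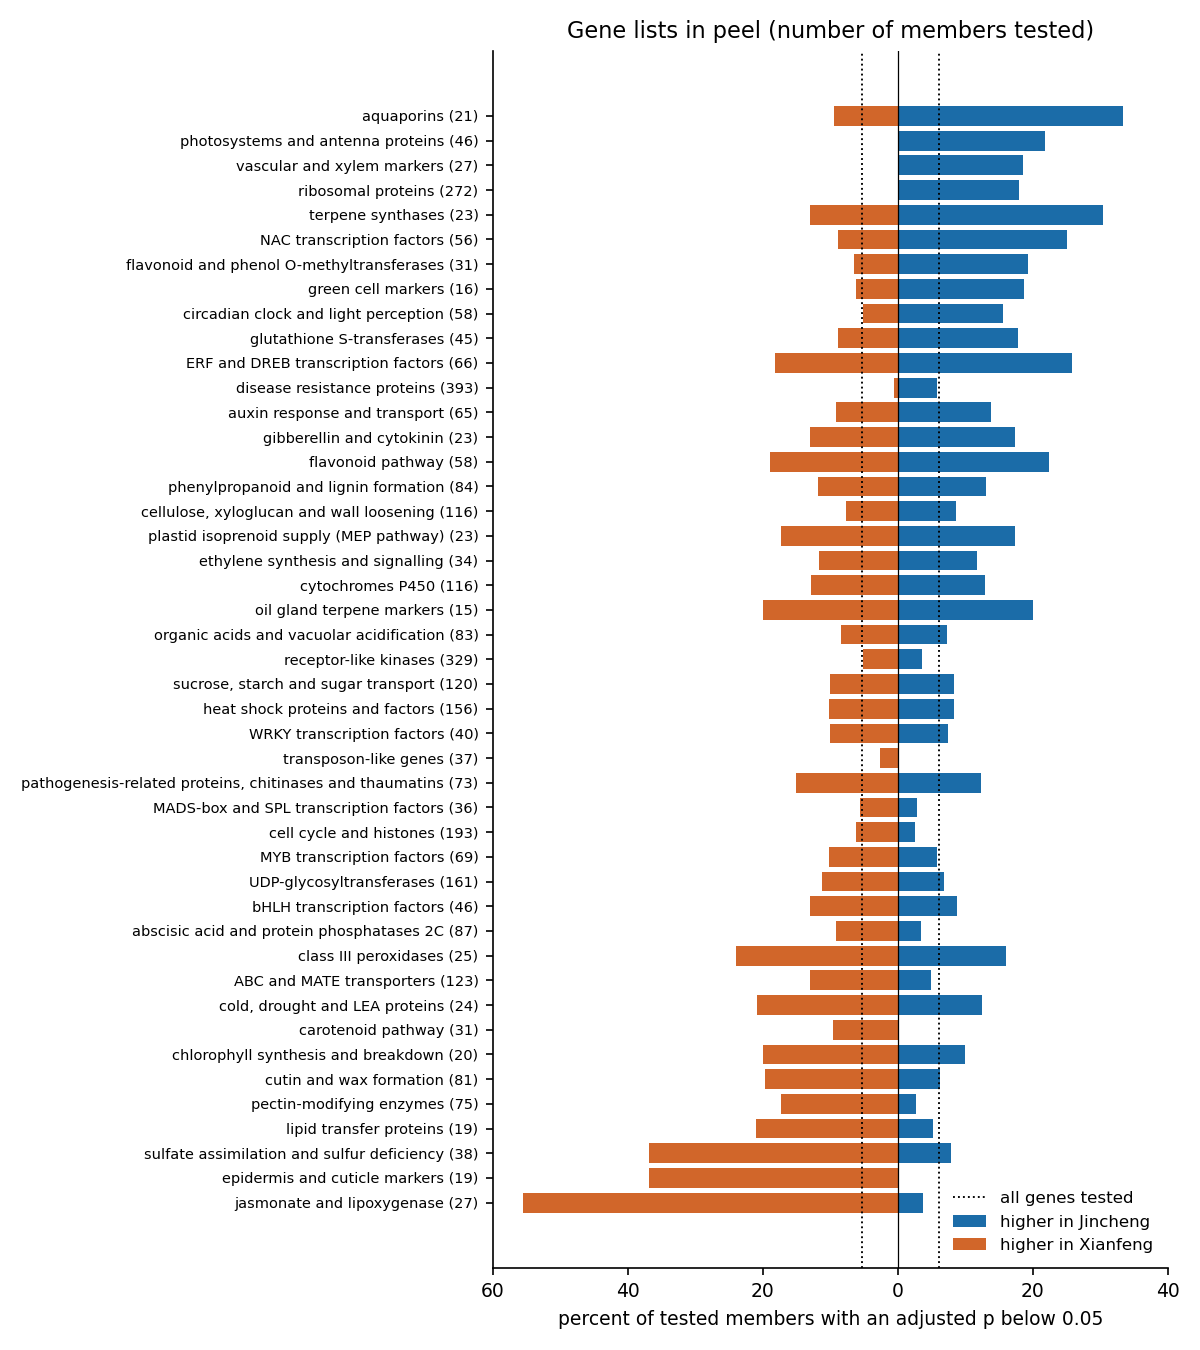
Percent of the tested members of each gene list with an adjusted p below 0.05, higher in Jincheng to the right and higher in Xianfeng to the left, for lists with at least 15 members tested. The dotted lines mark all genes tested (6.07% and 5.26%), and the jasmonate list reaches 55.6% on the Xianfeng side.

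Among NAC transcription factors more genes were higher in Jincheng than in Xianfeng, and some of them lie side by side. Of 56 tested, 14 (25%) were higher in Jincheng, 4 by 2-fold or more, 5 (8.93%) were higher in Xianfeng and 37 were not called. The gene IDs give the chromosome and the order of genes, and on chromosome 1 a stretch from Cs1g09575 to Cs1g09960, picked after its values had been seen, holds 43 genes, 22 of them tested. In it 12 genes were higher in Jincheng, 6 by 2-fold or more, none was higher in Xianfeng and 20 of 22 were above 0. Of all 17440 genes tested, 6.07% were higher in Jincheng, 5.26% were higher in Xianfeng and 10495 were above 0. Xianfeng had the lowest mean of the 6 varieties in 16 of the 22. NAC 92 (Cs1g09670) was at 4.27, 4.82 and 4.10 FPKM in Jincheng and at 0.726, 0.880 and 0.738 FPKM in Xianfeng (2.35, SE 0.13, adjusted p = 8.82e-06), with 4.11 to 6.44 FPKM in the other varieties. NAC 5 (Cs1g09650) was at 1.56 against 0.504 FPKM and NAC 40 (Cs1g09660) at 7.16 against 3.78 FPKM. Cs1g09665, with no description and between NAC 40 and NAC 92 in ID order, was at 10.1, 8.48 and 7.09 FPKM against 1.72, 2.90 and 2.62 FPKM. These tandem copies may share reads, and no strand was kept, so overlapping genes cannot be told apart.

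The stretch also holds genes that are no NACs. The methyltransferase PMT26 (Cs1g09840), of a family thought to act on wall polysaccharides in the Golgi, was at 70.1, 69.9 and 71.1 FPKM in Jincheng and at 30.4, 29.4 and 29.1 FPKM in Xianfeng (1.24, SE 0.03, adjusted p = 6.64e-08). The ubiquitin ligase RGLG3 (Cs1g09910) was at 14.1 against 7.51 FPKM, the catalytic subunit of DNA polymerase delta (Cs1g09920), a replication enzyme, at 2.79 against 1.20 FPKM, and trichome birefringence-like 14 (Cs1g09830), of a family of wall O-acetyltransferases, at 1.88 against 0.623 FPKM. In pulp the stretch did not keep this direction, with 3 of 19 tested genes higher in Jincheng and 6 higher in Xianfeng, against 14.7% and 16.5% of all genes tested in pulp. Elsewhere NAC 71 (Cs7g22920) was at 14.7 against 5.47 FPKM and NAC 79 (Cs7g22450) at 3.87 against 1.85 FPKM, while NAC 72 (Cs1g06760) was at 235 against 279 FPKM.

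**Figure D5:**
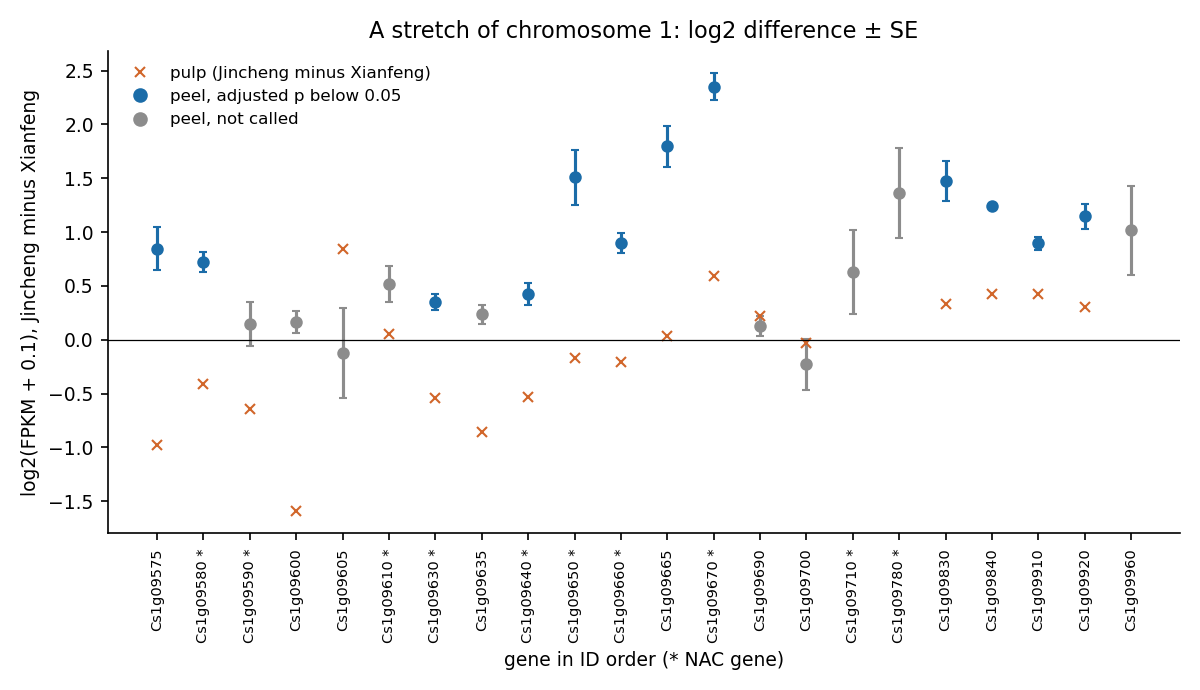
Log2(FPKM + 0.1) difference, Jincheng minus Xianfeng, of the 22 tested genes of the chromosome 1 stretch in ID order, with circles and SE bars for peel (blue where the adjusted p is below 0.05, grey otherwise) and crosses for pulp. In peel 20 of 22 genes are above 0, as are 10495 of all 17440 genes tested, and the crosses lie on both sides of 0.

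The largest folds were found mostly at low expression. Higher in Xianfeng, the hypothetical protein Cs5g14070 had the largest difference (-4.35, SE 0.63, adjusted p = 0.00286), at 0.407, 0 and 0.0995 FPKM in Jincheng and 9.66, 3.5 and 2.36 FPKM in Xianfeng, so Xianfeng library 1 was far above the other 2. The WAT1-related transporter Cs4g02570 was at 0.440 against 3.67 FPKM, with 7.40 FPKM in Xianfeng pulp. A salt induced small protein (Cs3g01585) was at 1.69 against 10.7 FPKM and tryptophan synthase beta chain 2 (Cs2g07700), of the last step to tryptophan, at 0.638 against 4.64 FPKM, while Taoye had 21.1 and 9.26 FPKM of these. Cs2g21235, with no description, was at 2.09 against 11.6 FPKM. At about 1 FPKM in Xianfeng were the MADS-box protein JOINTLESS (Cs1g20360), which in tomato forms the abscission zone of the fruit stalk (0.174 against 1.32 FPKM), the protease ESD4 (Cs3g09160), a transposase (Cs6g03110) and the hypothetical protein Cs5g14700.

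Higher in Jincheng, orange1.1t02897, with no description, was at 1.67, 1.20 and 1.23 FPKM in Jincheng and 0 in all 3 Xianfeng libraries, which is at least 3.35-fold higher against a floor of 3 fragments over the group. The Jincheng value rests on 10 fragments. The neighbours Cs4g17230 and Cs4g17240 were at 2.25 against 0.417 FPKM and 13.8 against 2.95 FPKM, with Jincheng libraries of the latter from 10.4 to 18.9 FPKM. GLUTAMINE DUMPER 2 (Cs6g19290), whose Arabidopsis family affects amino acid export, was at 1.59 against 0.365 FPKM. Cs1g06970, Cs6g12230 and Cs6g01860, of no known role, had log2 differences of 1.54, 1.61 and 1.54, and the last 2 lost their calls in most omissions of a library. The most abundant gene at least 2-fold higher in Jincheng beside ELIP 1 was a cytochrome c1-like gene (Cs2g20010), of the respiratory chain, at 501, 515 and 507 FPKM against 235, 259 and 249 FPKM (1.04, SE 0.03, adjusted p = 4.10e-07).

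Other families differed in their share of called genes and in direction. The shares over all genes tested were 6.07% higher in Jincheng and 5.26% higher in Xianfeng. Aquaporins, the water channels, had 7 of 21 members (33.3%) higher in Jincheng and 2 in Xianfeng, none by 2-fold, and TIP1-3 (Cs7g28650) was at 90.6 against 74.3 FPKM. ERF and DREB factors had 17 of 66 higher in Jincheng and 12 in Xianfeng. ABC and MATE transporters had 6 of 123 higher in Jincheng and 16 in Xianfeng, and vascular and xylem markers had 5 of 27 higher in Jincheng and none in Xianfeng. Of 65 auxin genes, 9 (13.8%) were higher in Jincheng and 6 (9.23%) in Xianfeng, with a median of 0.05. The 3 that passed 2-fold were higher in Xianfeng, such as GH3.1 (Cs8g04610), which conjugates auxin to amino acids, at 1.40 against 3.98 FPKM. The drought protein LEA14-A (Cs4g10930) was at 223 ± 5 against 295 ± 5 FPKM, with 167 FPKM in Xianfeng pulp. Higher in Jincheng were the receptor-like kinase Cs6g07000, at 4.11 against 1.92 FPKM, and the cytochrome P450 CYP72A219 (orange1.1t04730), at 7.14 against 3.32 FPKM.

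In most of the genes at least 2-fold higher in Xianfeng peel, Xianfeng had the highest mean of the 6 varieties. Of the 168, Xianfeng alone was at the extreme, with the highest of the 6 peel means, in 98, Jincheng alone was the lowest in 25, both held in 13 and neither in 32. Of the 93 genes higher in Jincheng, Jincheng alone was the highest in 15, Xianfeng alone the lowest in 45, both held in 7 and neither in 26. These counts describe the means and were not tested. The genes were selected on the same Jincheng and Xianfeng means, which favours extreme positions of these 2 varieties.

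In pulp the varieties differed in more genes, with 2384 (14.7%) of 16169 genes higher in Jincheng and 2665 (16.5%) higher in Xianfeng. Of the 122 genes at least 2-fold higher in Xianfeng peel that were tested in pulp, 52 were also called higher in Xianfeng pulp and 18 were called in the opposite direction. Of the 55 such genes higher in Jincheng peel, 15 were called in the same and 5 in the opposite direction. The difference between the tissues was itself tested with an interaction term in limma, which was called for 3771 (21.1%) of 17855 genes, among them 117 of the 168 and 47 of the 93.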

How the data were processed

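RNA-seq libraries from peel and pulp of 6 sweet orange varieties were represented by 1 deposited table of FPKM for 29654 genes and 36 libraries. The FPKM values were made by the authors and deposited without further scaling. The submitters' processing notes name TopHat2, RSEM and DESeq 1.10.1, with no role given. The genome build is not given in the sources used here. FPKM times the deposited length, whose definition is not stated, fell on whole fragments for 100% of values (tolerance 0.02), which gave each library's depth. The kit keeps no strand, and reads of similar genes may be divided between them.

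Genes that averaged 0.3 FPKM or more in Jincheng or Xianfeng were tested on log2(FPKM + 0.1), 3 libraries against 3, with limma 3.58.1 (mean-variance trend) in R 4.3.3 and Benjamini-Hochberg adjustment. An exact permutation test of 3 against 3 cannot go below 0.10 and was not used. Fold changes on this scale understate low genes. Differences are Jincheng minus Xianfeng. Values joined by "against" are the Jincheng and Xianfeng peel means. SD and n = 3 apply to every ± value. Tables used Python 3.11.15 and pandas 2.3.3, plots matplotlib 3.10.9. The scripts were tested on simulated data.

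The members and lists were chosen with earlier results of these data known. Lists were word searches in the deposited descriptions, refined after the table was seen. In the auxin list 1 exclusion was added after values had been seen. The sulfur list and the pulp-rich and chromosome 1 sets were chosen after values were seen. Named genes were the 10 largest differences each way with at least 1 FPKM, up to 2 per list by level and 2 by fold, runs of at least 3 genes, the 10 most abundant at 2-fold and genes the study names. They number 112, of which 73 are described, and 49 others outside the rule were chosen after their values were seen. Alternatives changed the pseudocount, filter, scaling, spread, trend, weights, replicate block and libraries. The 4 juice sac markers had 2 of 3 tested members higher in Xianfeng, among them ATPase 10, and none higher in Jincheng. Of all genes tested, 5.26% were higher in Xianfeng and 6.07% in Jincheng. The summed level of the 4 markers set pulp little apart from peel. It was 205 to 208 FPKM in Jincheng peel, 227 to 230 FPKM in Xianfeng peel and 243 to 273 FPKM in the pulp of both.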

Additional observations from a re-analysis of the deposited data

Results flagged for a closer look

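Groups of 3 libraries are too small for a test of single outlying libraries, so the results listed here are those in which the variety difference was not the same in peel and in pulp, by the interaction term of limma. The interaction was called for 3771 genes in all and for 78 of 122 genes described above. The values below are the peel difference minus the pulp difference on the log2 scale (Jincheng minus Xianfeng in each tissue). For 13 of these genes the varieties were called in opposite directions in the 2 tissues.

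Of the genes called in opposite directions that pulp expresses strongly, ATPase 10 (Cs1g16150) differed most, at -2.50. It was at 1.05 against 3.92 FPKM in peel and at 54.9 against 34.2 FPKM in pulp. RD21A (Cs2g04770) followed with -1.97, basic helix-loop-helix protein A (Cs5g31400) with -1.80 and MYB5 (Cs9g03070) with -1.74, all higher in Xianfeng peel and in Jincheng pulp. The same directions held for Chalcone synthase (Cs3g19360, -1.23) and pectate lyase 22 (Cs5g06600, -0.80).

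Higher in Jincheng peel and in Xianfeng pulp were ELIP 1 (Cs9g07670, 1.79), at 741 against 350 FPKM in peel and 10.2 against 16.8 FPKM in pulp, serine acetyltransferase 3 (Cs4g08990, 1.16), sulfate transporter 3.1 (Cs5g30850, 0.96), the aquaporin TIP1-3 (Cs7g28650, 0.60), allene oxide cyclase (Cs6g18900, 0.39) and the ribosomal protein P0-1 (Cs7g31340, 0.24). The uncharacterized gene Cs6g12230 had the largest positive value, 2.83, at levels of 0.198 to 1.24 FPKM. Some of these opposite calls were weak. The peel calls of Cs5g30850, Cs6g18900 and Cs7g31340 were lost after scaling by the median ratio. Those of Cs5g30850, Cs7g31340 and Cs6g12230 were lost in most omissions of a library. In pulp the adjusted p (limma) was 0.0487 for Cs7g28650 and 0.0488 for Cs6g12230.

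The other genes were not called in opposite directions. Among the sulfur genes higher in Xianfeng peel the value was -1.83 for SULFUR DEFICIENCY-INDUCED 1 (Cs5g34830), -1.42 for RESPONSE TO LOW SULFUR 2 (orange1.1t02887) and -1.13 for both SULFUR DEFICIENCY-INDUCED 2 (Cs9g11050) and homocysteine S-methyltransferase 3 (Cs9g07420). It was -0.99 for homocysteine S-methyltransferase 1 (Cs7g13320), -0.96 for 5'-adenylylsulfate reductase 1 (Cs2g02980), -0.72 for sulfite reductase 1 (Cs2g30390) and -0.34 for ATP sulfurylase 1 (Cs9g07750). The cystinosin homolog (Cs2g24290) had -0.77 and the oligopeptide transporter Cs4g08370 had -0.97. Sulfate transporter 3.5 (Cs4g16770), higher in Jincheng peel, had 0.37. Not called in peel were serine acetyltransferase 5 (Cs4g13620, 0.37) and the methionine synthases Cs5g27000 (-0.31) and Cs5g27040 (-0.39).

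Of the further genes with high pulp levels, basic endochitinase A (Cs1g26330) had -1.27, the germin-like protein (Cs5g25760) -1.31, the heat shock protein Cs8g18020 -1.25 and ACC oxidase 1 (Cs4g13870) -1.16. Pectinesterase 21 (Cs3g14610) had -1.05, chlorophyllase-1 (Cs5g30790) -0.95, SWEET15 (Cs7g02970) -0.79, NCED1 (Cs5g14370) -0.41 and polygalacturonase 1 beta-like protein 3 (Cs7g08620) -0.16.

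For the cuticle and jasmonate genes the value was -1.45 for the lipase APG (Cs1g16000), -1.28 for glycerol-3-phosphate acyltransferase 6 (Cs6g07920) and -0.80 for 3-ketoacyl-CoA synthase 6 (Cs7g13310). It was -1.93 for 12-oxophytodienoate reductase 2 (Cs5g17920), -1.82 for cytochrome P450 94C1 (Cs3g07440), -0.86 for hydroperoxide lyase (Cs2g21000), -0.83 for TIFY 5A (Cs2g03240) and -0.57 for TIFY 10A (Cs1g17220). A larger difference in pulp than in peel, with Xianfeng higher in both, gave positive values for ECERIFERUM 1 (Cs1g02760, 0.85), ECERIFERUM 3 (Cs4g02580, 0.48), the extensin Cs3g21170 (0.58) and LEA14-A (Cs4g10930, 1.07). The pulp means of Cs1g16000 and Cs6g07920 were at most 0.166 and 0.019 FPKM, below the 0.3 FPKM needed for a test in pulp.

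Others higher in Xianfeng peel were Cs5g14070 (-4.91), tryptophan synthase beta chain 2 (Cs2g07700, -2.77), Cs5g14700 (-2.67), the transporter Cs4g02570 (-2.58) and the salt induced protein Cs3g01585 (-2.29). The geranylgeranyl pyrophosphate synthase subunit (Cs4g10240) had -1.92, JOINTLESS (Cs1g20360) -1.52, DMR6-LIKE OXYGENASE 1 (Cs5g28710) -1.36, ACC synthase 8 (Cs3g16400) -1.16 and the isoflavone reductase homolog (Cs2g16260) -0.80. Many of these were near 0 FPKM in pulp.

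Among the genes of the chromosome 1 stretch, all higher in Jincheng peel, the value was 1.76 for both NAC 92 (Cs1g09670) and Cs1g09665, 1.67 for NAC 5 (Cs1g09650) and 1.11 for NAC 40 (Cs1g09660). It was 1.14 for trichome birefringence-like 14 (Cs1g09830), 0.85 for DNA polymerase delta (Cs1g09920), 0.81 for PMT26 (Cs1g09840) and 0.47 for RGLG3 (Cs1g09910). Elsewhere NAC 79 (Cs7g22450) had 1.37 and NAC 71 (Cs7g22920) 1.29.

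The remaining genes higher in Jincheng peel were Cs1g06970 (1.79), beta-D-xylosidase 5 (Cs8g08680, 1.65), the kinase Cs6g07000 (1.63), DSC1 (Cs5g17870, 1.26) and CYP72A219 (orange1.1t04730, 1.23). The photosystem II 22 kDa protein (Cs3g19650) had 1.13, the cytochrome c1-like gene (Cs2g20010) 0.79 and the ELIP copy Cs9g07680 0.37. Cs3g19650 was at 0.0289 and 0.0258 FPKM in Jincheng and Xianfeng pulp, so its value mostly repeats the peel difference of 1.14. The plastid 30S ribosomal protein S7 (Cs4g12360) had -3.27, since its difference in pulp was far larger than in peel. The ethylene-responsive factor Cs1g16690 had 0.13 with no call in either tissue. The cause of these differences was not tested.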

How the results depend on the processing

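The 1977 called genes became 980 with no mean-variance trend and 1283 to 1666 when 1 library was left out. The other 9 settings gave 1511 to 2625. Of the 261 genes at 2-fold or more, 69 remained with a pseudocount of 1, which shrinks low genes, and 178 to 199 when 1 library was left out. The fits without 1 library called 209 to 242 genes at 2-fold in all, some of them outside the 261. In all, a filter at a mean of 1 FPKM gave 189 such genes, and the other settings gave 210 to 339. The 3771 genes whose difference depended on the tissue became 3172 to 3541 when 1 library was left out and 3526 to 3927 otherwise. With the replicate number as a block, 1511 genes were called, 227 of them at 2-fold or more. Same-numbered libraries did not deviate together (r of -0.05, -0.03 and 0.01 across genes), and the block is given here only. Such correlations across all genes cannot exclude a shared handling of same-numbered libraries. The weights on recovered fragments (limma voom) gave 2625 and 339.

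For the 122 genes described there were 1948 recalculations. The sign changed in 4, all of uncalled genes: Cs5g26680 (-0.159 to 0.0145 when 1 library was left out), Cs3g11480 (-0.038 to 0.0039), Cs3g19470 (-0.161 to 0.0030) and Cs5g27000 (0.0332 after quantile normalization). Cs1g21470 gained a call in 2. The call was lost in 88, in 14 genes, and 11 of the 14 lost it when some single library was left out. For TIP1-3 (Cs7g28650), the disease resistance response protein Cs5g02790 and ELIP Cs9g07680 it was lost in 1 setting that used all 6 libraries. The 14 also include Cs6g03110, Cs4g12360 and orange1.1t03136. Of the 19 pulp-rich genes tested, 14 to 18 were called higher in Xianfeng, and none in Jincheng, in all settings. Depth limits the low genes: at 0.3 FPKM few fragments stand behind a value. The causes were not tested.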
